A study of Sus scrofa with 28 samples.

Results

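In ATAC-seq, a transposase inserts sequencing adapters where chromatin is open, so a peak marks DNA that the enzyme could reach. Among the ATAC-seq peaks of pig liver, the regions described here were inside genes but away from gene ends, and they recurred between libraries. Peaks of all 28 libraries that overlapped by at least 1 bp were chained into 29392 regions. Of these, 8592 were listed in at least 3 libraries and are called recurrent. A recurrent region was counted as intragenic distal when its midpoint was inside a gene of the RefSeq annotation of Sscrofa11.1 and more than 1000 bp from both ends of every annotated gene. This gave 2258 regions, which is 26.3% of the recurrent ones. The remainder comprised 5035 regions within 1000 bp of a gene end (58.6%) and 1299 outside genes (15.1%). The regions were thus chosen by their presence in the peak lists and by their position, and both are given below as description.

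The livers came from female pigs of the native Polish breed Zlotnicka White at 180 days of age and with a common target weight at slaughter. The tissue was digested with Accutase, strained and slowly frozen before library preparation with a TruePrep kit. The 4 groups of 7 libraries were labelled high fat content_200, low fat content_200, high fat content_600 and low fat content_600. The labels state neither the meaning of 200 and 600 nor the tissue in which fat was graded, and they put the fat groups under a tag named shear force. They do not say whether libraries came from separate animals, so p-values below measure the spread between these libraries. The 2 sets carry different lane tags in the deposited table, so lane and set cannot be told apart. Liver contains several cell types, and in bulk tissue a lower number of cells of a type and a lower accessibility per cell cannot be told apart.

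Open chromatin inside a gene and far from its ends is often an enhancer, a stretch to which transcription factors bind and from which they act on a promoter at a distance. The promoter acted on need not be that of the surrounding gene. Other such sites are internal promoters, insulator sites or repeats, and a peak alone does not tell these apart. In hepatocytes, intragenic enhancers are known near genes of lipid and glucose metabolism, where nuclear receptors and factors such as HNF4A bind. The annotation table used here gives gene spans without strand, exons or introns, so a gene end below is either its start or its finish, and no sequences are shown.

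Listed peaks ranged from 39 to 17652 per library, and 13 libraries had under 1000. The intragenic distal regions listed ranged from 4 in high fat 600 replicate 6 to 2020 in high fat 200 replicate 1, with a median of 89. The 2 libraries with the most peaks were high fat 200 replicates 1 and 7. They listed 2020 and 1963 of the regions, 1768 regions were in both, and 43 were in neither. Of 12793 listings, 97.3% came from the 15 libraries with at least 1000 peaks. High fat 200 replicate 3 had 6288 peaks but 256 of the regions, and 4.20% of its peaks were in them, the lowest share of the 28 libraries. In high fat 600 replicate 3 that share was 6.59%, and the median over all libraries was 12.5%. Without both of these libraries 2202 regions met the rule.

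**Figure D1:**
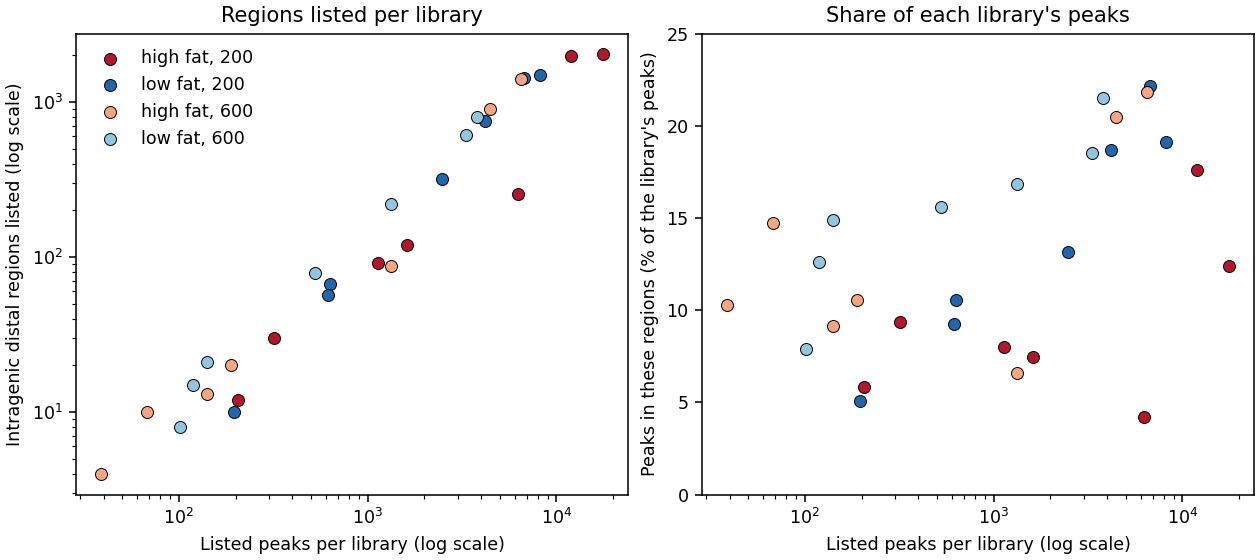
Left, the number of intragenic distal regions listed in each library (log scale) against the library's number of peaks (log scale); right, the share of the library's peaks that were in them (%). Each point is 1 library, coloured by group; the count of regions rises with the number of peaks, and the library at 6288 peaks and 4.20% is high fat 200 replicate 3.

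The regions had a median width of 1036.5 bp (quartiles 779 and 1410 bp), against 1247 bp for regions at gene ends and 987 bp for those outside genes. Within the libraries, the peaks in them were narrower than those at gene ends in 25 of the 28. Peaks in these regions were wider in the 600 set than in the 200 set. The median width per library was 339 to 562 bp over the 14 libraries labelled 200 and 703 to 1093 bp over the 14 labelled 600, and these ranges did not overlap. Peaks at gene ends showed the same order, from 326 to 710.5 bp in the 200 libraries and from 769 to 1215 bp in the 600 libraries. No test was run on these widths.

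Strength was read from the deposited −log10 p, which is the peak caller's own value for each peak and moves with the depth of the library. The median over the regions was 4.33 (quartiles 4.07 and 4.65). Placed within its own library, where 0 is the weakest and 100 the strongest peak, an intragenic distal region sat at percentile 46.6, a gene-end region at 55.3 and a recurrent region outside genes at 47.2. The median region was listed in 5 libraries, against 7 at gene ends. At least 10 libraries listed 258 regions (11.4%, against 26.1% at gene ends), at least 14 listed 56, and 11 regions were in 20 or more. Just inside the rule were 676 regions in exactly 3 libraries, and just outside it 1384 intragenic distal regions in 2. Of all intragenic distal regions with a peak in any library, 16.9% recurred, against 56.1% at gene ends and 18.4% outside genes.

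The regions thinned out with distance from gene ends. Their median distance to the nearest end was 13447.5 bp (quartiles 3761 and 38863 bp). Between 1 and 2 kb from an end there were 5.90 regions per Mb of gene sequence at that distance (301 regions). This fell to 2.01 per Mb between 5 and 10 kb (306 regions), 1.55 per Mb between 25 and 50 kb (367 regions) and 0.780 per Mb beyond 100 kb (180 regions). Regions listed in at least 10 libraries showed a steeper decline, from 1.20 to 0.0477 per Mb over the same range. Recurrent regions outside genes went from 3.14 to 0.641 per Mb, and intragenic regions listed in a single library from 18.6 to 3.28 per Mb.

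The nearest bins hold many regions that reach toward a gene end. In 225 of the 2258, the nearest edge was within 1000 bp of an end although the midpoint was not, and 218 of these were in the bin from 1 to 2 kb. A gene end lay within 36 of them. JUNB and IER2, immediate early genes, are examples, since the regions of 4998 and 4701 bp covered most or all of these short genes. The remaining 2033 lay wholly more than 1000 bp from every end. At the limit itself, 47 regions had midpoints more than 1000 and up to 1100 bp from an end, and 57 recurrent regions inside genes lay just outside the rule at 900 to 1000 bp.

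**Figure D2:**
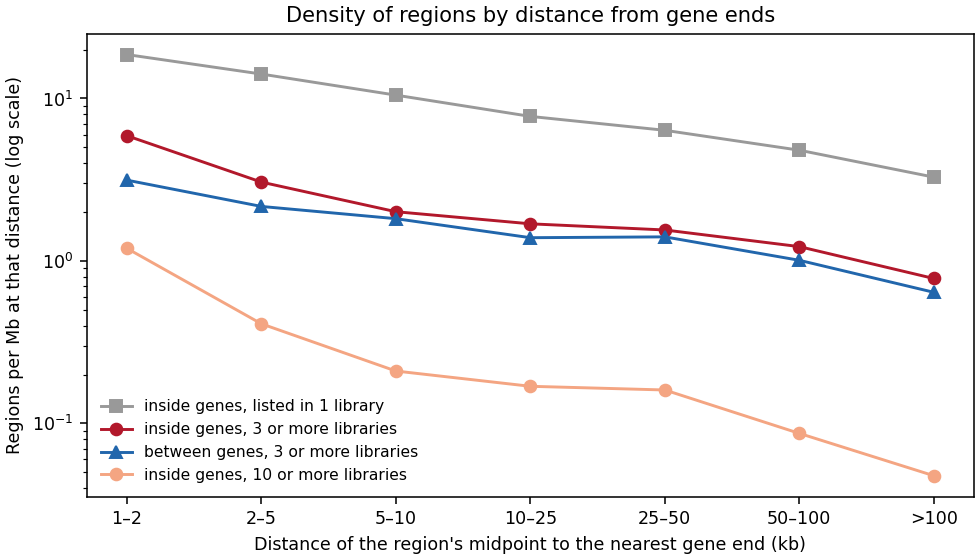
Regions per Mb (log scale) at each distance of the midpoint from the nearest gene end (kb), for intragenic regions in 1 library, in 3 or more and in 10 or more, and for recurrent regions outside genes. Intragenic distal regions in 3 or more libraries fall from 5.90 to 0.780 per Mb, and each other line is also lower beyond 100 kb than at 1 to 2 kb.

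Most of the regions, 1961, were in a gene with a symbol, and each was assigned to the shortest such gene, protein-coding where there was one, which gave 1511 host genes. Of these genes, 1204 held 1 region, 219 held 2 and 88 held 3 or more. The remaining 297 regions were in genes without a symbol, of which 214 were in long noncoding RNA genes only and 71 in protein-coding genes. Long genes held a region more often but at a lower density. Among protein-coding genes with a symbol, 2.02% of those under 10 kb held one and 35.3% of those over 300 kb, while the density went from 5.56 to 1.08 regions per Mb of distal sequence. Host genes had a recurrent region at one of their own ends in 35.0% of cases, against 33.2% for genes without an intragenic distal region, but this order moved with gene length. In the 4 span classes up to 300 kb host genes were lower (for example 38.4% against 40.8% from 30 to 100 kb), and over 300 kb they were higher (31.8% against 23.1%). By chromosome, they made up from 13.8% of the recurrent regions on chromosome 12 (22 of 160) to 32.8% on chromosome 8 (156 of 476).

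In all 28 libraries, 3 of the regions were listed. The strongest was in SPOCK3, which encodes a secreted proteoglycan of the extracellular matrix, at chr14:21808222-21808918 and 54151 bp from the nearest gene end. Its −log10 p over the 7 high fat 200 libraries was 13.6 at the lowest, 17.6 at the median and 26.8 at the highest. Over the low fat 200 libraries these values were 15.8, 24.4 and 33.8. High fat 600 libraries gave 8.90, 10.8 and 23.99, and low fat 600 libraries 6.97, 16.6 and 23.4. The 4 groups overlapped, and in the median library the peak outranked 99.5% of the others.

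The second was in PDE4D, a phosphodiesterase that breaks down cAMP, at chr16:37934727-37935424 and 37775.5 bp from the nearest end of a gene that spans 1509 kb. Median −log10 p was 9.30 in high fat 200, 11.4 in low fat 200, 7.59 in high fat 600 and 9.55 in low fat 600. The values ran from 3.08 to 13.7 over the 28 libraries, and the groups overlapped. The third was in a protein-coding gene without a symbol at chr8:16914917-16915650, with values from 4.50 to 9.46 and group medians from 6.72 to 8.23. The SPOCK3 and PDE4D genes had no recurrent region at their own ends.

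Next in order came 3 regions in long noncoding RNA genes without a symbol. One at chr9:15232484-15233282 was listed in 27 libraries and missing from low fat 600 replicate 5. One at chr7:10867574-10868582 was in 25 and one at chr8:12487322-12488013 in 24. The chromosome 9 region lay 238061 bp from the nearest gene end, while the other 2 lay 37453 and 38435.5 bp away.

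Regions in named genes followed. SLC39A10, a zinc importer, held one in 23 libraries at chr15:99653978-99656176. CEP85L, a centrosomal protein gene, held one at chr1:43479447-43480141, and the nearest annotated gene end was that of PLN, 20869 bp away. It was listed in 14 of 14 libraries of the 200 set and in 7 of 14 of the 600 set. This difference did not pass Fisher's exact test between the sets (exact p = 0.00580, Fisher's adjusted p = 0.566). Of all recurrent regions, 83.5% were in more 200 than 600 libraries. KIRREL3, a cell adhesion gene of the nervous system, held one in 20 libraries. Also in 20 were regions in GMPS, the GMP synthase, and in CNOT8, a deadenylase that shortens mRNA tails. PHLPP1, a phosphatase that acts on AKT, KAT6B, a histone acetyltransferase, and RIMS1, a presynaptic scaffold gene, each held one in 18 libraries. Also in 18 was a region in a protein-coding gene without a symbol, at chr1:234367309-234371653, which reaches a gene end. STT3B, which attaches sugar chains to proteins in the endoplasmic reticulum, PJA2, a ubiquitin ligase, SSX2IP, IFRD1 and ZNF654 each held one in 17. The midpoints of the GMPS, CNOT8 and PHLPP1 regions lay 1252 to 1651 bp from the nearest end, so these are close neighbours of gene ends. The PHLPP1 region reaches a gene end, and the nearest edges of the GMPS and CNOT8 regions lay 583 and 562 bp from one. In STT3B the midpoint lay 2028 bp and the nearest edge 708 bp from an end. KAT6B (14368 bp), PJA2 (73877.5 bp) and RIMS1 (191526 bp) are examples deeper within genes.

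The most often listed regions fell into different patterns by library size. GMPS had a median −log10 p of 6.70 in the 15 libraries with at least 1000 peaks and was listed in 5 of the 13 smaller ones, at a median of 4.44. CNOT8 went from 6.14 in the large libraries to 3.85 in 5 small ones, and KAT6B from 5.54 to 3.56 in 3. For SPOCK3 the order was opposite, with 16.1 in the large and 20.1 in the 13 small libraries. The chromosome 9 region had 6.34 in the large libraries and 10.6 in 12 small ones, and the chromosome 7 region 5.59 and 6.13. PDE4D stood between these patterns with 9.69 and 8.52. At least 1 small library listed 160 of the 2258 regions (7.09%), against 15.5% of gene-end and 14.8% of intergenic recurrent regions, and 3 or more small libraries listed 39.

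**Figure D3:**
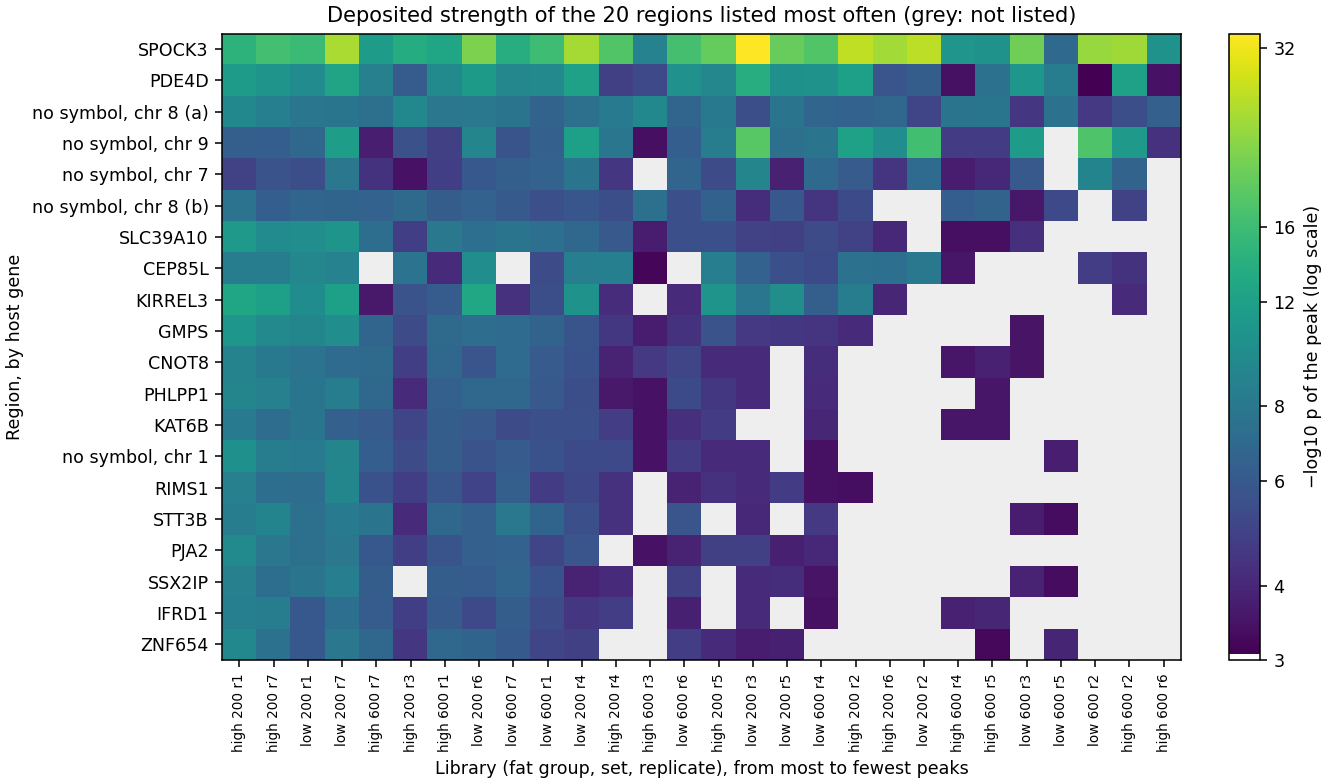
Deposited −log10 p (colour, log scale) of the 20 intragenic distal regions listed most often (rows, by host gene) in each of the 28 libraries (columns, from most to fewest peaks); grey means not listed. The top rows are filled across the plot, while rows from GMPS down fade and stop toward the libraries with few peaks.

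Some genes held several of the regions. ITPR1, the calcium release channel of the endoplasmic reticulum, had the most with 8 over 331 kb of chromosome 13, listed in 3 to 9 libraries each. PDE4D had 7, of which the one described above was in 28 libraries and the other 6 in 3 to 5. ELOVL6, the enzyme that elongates long-chain fatty acids in de novo lipogenesis, had 6 within 151 kb of chromosome 8. Of these, 3 lay near the upper end of the gene, at chr8:112175921-112176968 in 11 libraries, chr8:112178764-112180280 in 12 and chr8:112183579-112185008 in 14. The last was in 5 high fat 200, 4 low fat 200, 2 high fat 600 and 3 low fat 600 libraries, with a median −log10 p of 4.81. The midpoints of these last 2 lay 1576 and 1411.5 bp from the nearest annotated gene end, and their nearest edges 818 and 697 bp. Those nearest ends were not of ELOVL6 itself, whose upper end is at chr8:112190079. Another, at chr8:112112193-112114218 in the middle of the gene, was in 8 libraries.

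ACSS3, a mitochondrial acyl-CoA synthetase for short chains, had 6, in 2 clusters 10.9 to 13.2 kb and 137 to 149 kb from the lower end, as drawn in the plot of regions along genes. FAM13A, a gene associated with fat distribution and lung disease in humans, had 6 in 3 to 9 libraries. TRPM3, a cation channel, also had 6, in up to 5 libraries. With 5 each, EPB41L4B, RETREG1 (a receptor for turnover of the endoplasmic reticulum), CTIF, PPARGC1A (a coactivator of mitochondrial and gluconeogenic genes) and BACH2 (a transcriptional repressor) completed the 11 genes with 5 or more. Per Mb of distal sequence, ELOVL6 had 41.3 regions and ACSS3 39.2, against 24.5 in ITPR1, 7.40 in PPARGC1A and 4.73 in PDE4D. The value over all protein-coding genes with a symbol was 1.87. These genes were taken for having many regions, so a density above that value was built into the choice. Some genes with fewer regions were denser, such as DCPS (4 regions, 116 per Mb), KLF13 (3, 85.5 per Mb) and TNIP1 (4, 77.0 per Mb).

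**Figure D4:**
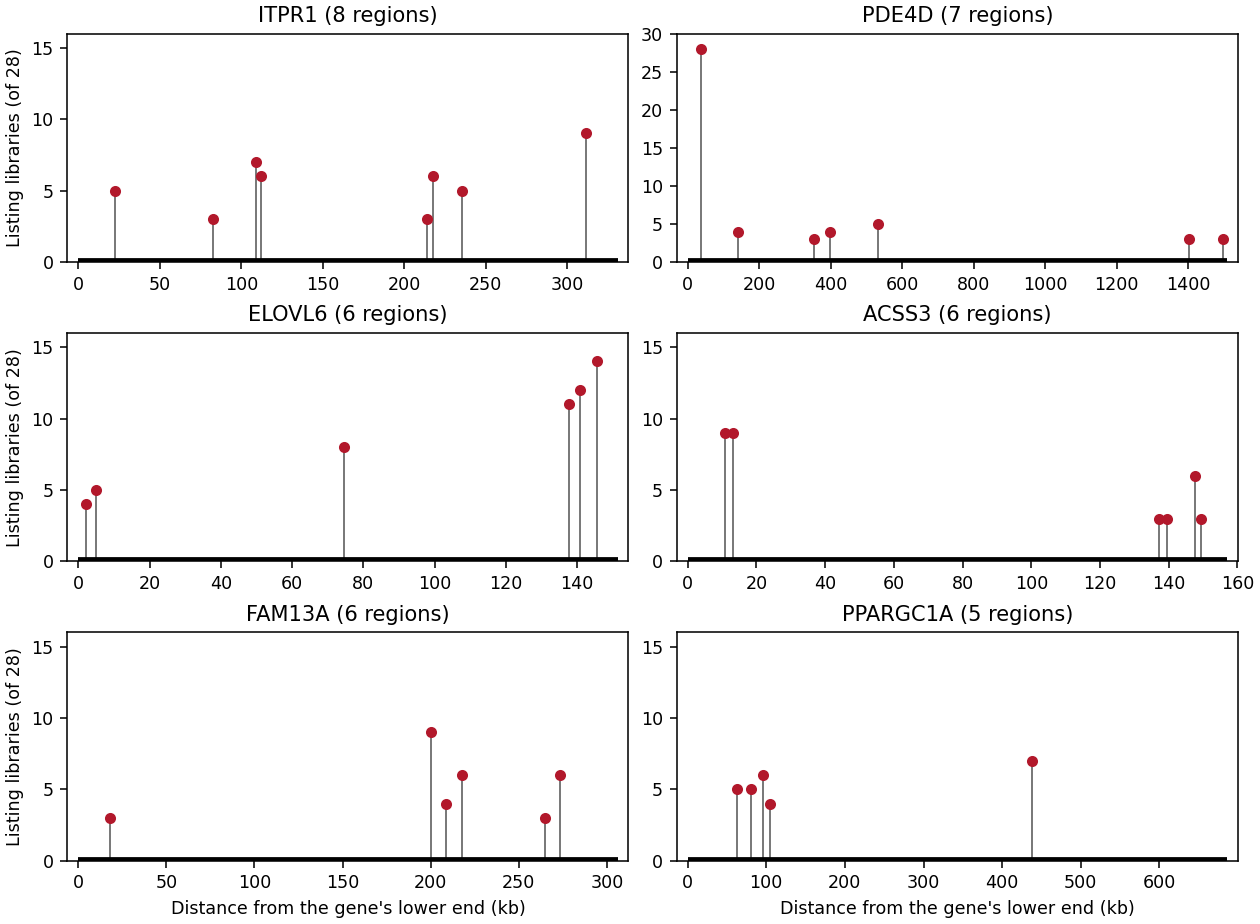
Positions of the intragenic distal regions along 6 genes, in kb from the gene's lower coordinate (horizontal axis), with the number of listing libraries as height; the black bar is the gene. The 3 tallest marks of ELOVL6 stand together near its upper end at 11, 12 and 14 libraries, and 1 mark of PDE4D reaches 28. The vertical axis of the PDE4D panel runs to 30, the others to 16.

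Gene lists for liver functions were read against all 16314 protein-coding genes with a symbol, of which 9.32% held a region. Because list genes differ in length, densities are given beside that of all genes with the same mix of span classes. The longest class held all genes over 300 kb. Fatty acid oxidation and ketogenesis genes held a region in 7 of 21 cases, 14 regions in all, at 10.3 per Mb against 1.88 for genes of like spans. PPARGC1A held 5 of these, and ACSL1, which activates long-chain fatty acids, held 3, one of them in 13 libraries. BDH1, the mitochondrial enzyme that forms the ketone body hydroxybutyrate, had one in 12 libraries, and HADH, a beta-oxidation enzyme, had one in 8. Of the triglyceride synthesis and lipid droplet genes, 5 of 24 held 10 regions (12.5 per Mb against 2.46). Those were LPIN1 with 4 and LPIN2 with 3, which make diacylglycerol, and the acyltransferase genes GPAT3, GPAT4 and AGPAT3 with 1 each. For de novo lipogenesis it was 3 of 15 genes with 8 regions (7.82 per Mb against 2.11), of which ELOVL6 held 6. ACACA, the acetyl-CoA carboxylase, held one in 10 libraries and ELOVL5 one in 6.

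Genes for secreted plasma proteins held a region in 9 of 35 cases (12.2 per Mb against 2.84). AMBP, the precursor of alpha-1-microglobulin, had 2, in 11 and 7 libraries. The list also counted FGA (fibrinogen alpha chain), AHSG (fetuin-A), SERPINC1 (antithrombin), the coagulation factor genes F9, F10 and F11, A1CF and ITIH2. The FGA region reaches a gene end, and 8 of the 35 genes held a region wholly more than 1000 bp from gene ends. Cholesterol and bile acid genes had 3 of 22 with 1 region each (4.24 per Mb against 2.72), among them FDFT1 (squalene synthase, 7 libraries) and CYP7A1 (which starts bile acid synthesis, 4 libraries). Lipoprotein genes had 3 of 22, namely APOB, MTTP and LIPC, at 1.53 per Mb against 1.41. Every one of these 4 lipoprotein regions was listed in exactly 3 libraries, and without high fat 200 replicate 1 the count of genes was 1 in place of 3. Glucose and insulin signalling genes had 5 of 29 (2.46 per Mb against 1.90), with FOXO3 in 12 libraries and INSR, the insulin receptor, in 6. Of the 5, FOXO3, FOXO1 and PCK1 had no region wholly more than 1000 bp from gene ends.

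Among regulators, hepatocyte transcription factor genes held a region in 7 of 17 cases (4.90 per Mb against 1.64). ONECUT1 had one in 9 libraries and FOXA1 one in 7, while HNF4A had 2 in 3 libraries each. GATA4, NR5A2, TLE4 and ZBTB20 had 1 each. Metabolic nuclear receptor genes had 11 of 28 and 15 regions (3.77 per Mb against 1.46). NR2F2 led with 11 libraries, in a region that reaches a gene end, before NR3C1, the glucocorticoid receptor, with 10 and NR1H4, the bile acid receptor FXR, with 7. Circadian clock genes had 7 of 19 (4.99 per Mb against 1.69), with BHLHE40, a clock repressor, in 14 libraries and CRY2 in 8. The BHLHE40 region also reaches a gene end. AP-1, stress and NF-kappa-B genes had 6 of 27 (6.86 per Mb against 1.67), among them NFE2L2, the oxidative stress regulator NRF2, in 10 libraries and ATF3 in 7. BACH2 held 5 of the 10 regions. Those of JUNB (11 libraries) and IER2 (9 libraries) reach a gene end. With regions wholly more than 1000 bp from gene ends, 4 of the 27 genes held one.

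Among signalling lists, growth factor and adhesion signalling genes had 11 of 30 (1.92 per Mb against 1.32), with TGFBR1, a TGF-beta receptor, in 12 libraries and EGFR holding 4 regions. Phosphodiesterase and cAMP genes had 8 of 34 (2.21 per Mb against 1.34). Neuronal adhesion and synapse genes lay below the value of their span classes. They held a region in 21 of 58 cases, with 0.525 per Mb against 1.09. Their median span was 871 kb, while the longest span class took all genes over 300 kb together. Density fell with gene length across the classes, so this difference was not matched for length within the longest class. SPOCK3 and KIRREL3, described above, belong to the neuronal list. These lists were chosen with earlier results of the same libraries known, no test was applied to them, and most counts are lower when 5 in place of 3 listing libraries are asked for.

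**Figure D5:**
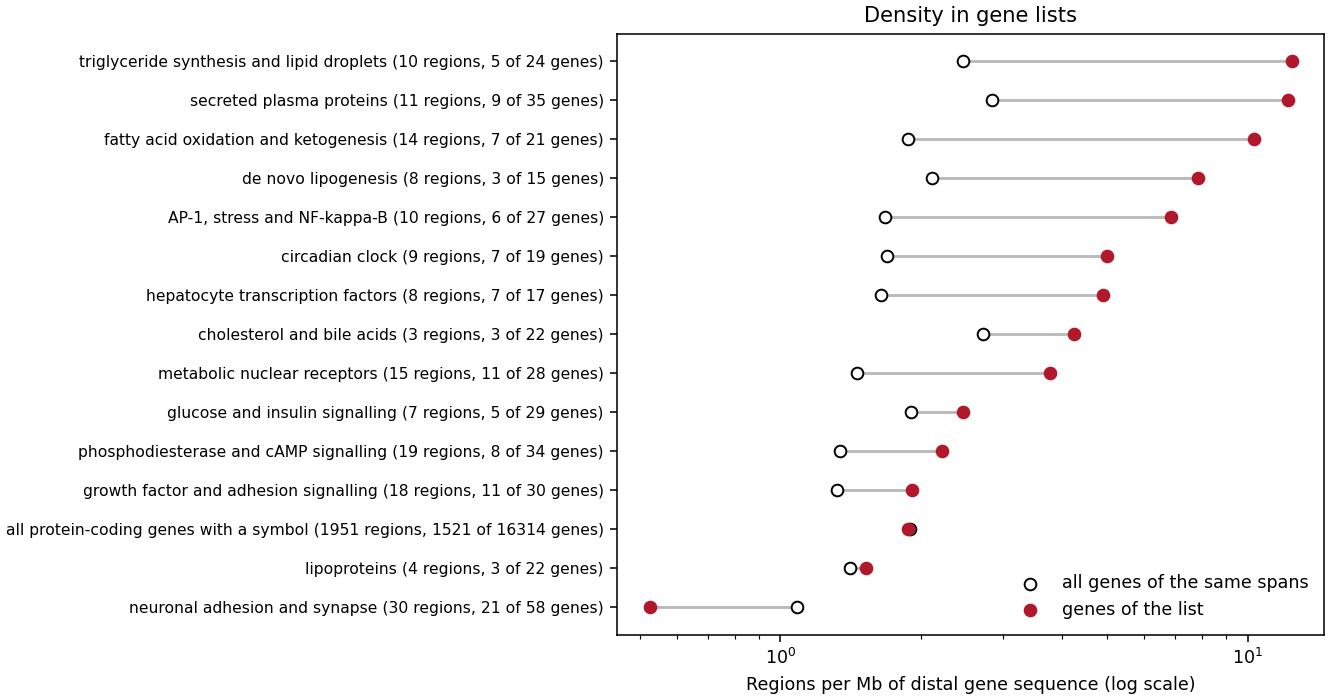
Filled points are intragenic distal regions per Mb of distal gene sequence (log scale) in each gene list described. Open points are all protein-coding genes with a symbol in the same mix of span classes. The labels give the regions and the genes with one of those matched. Every gene list except the neuronal one stands to the right of its open point, the lipoprotein list by the least. The neuronal list stands to the left.

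The labelled tissue was read from marker genes. Of 18 hepatocyte markers, 4 held an intragenic distal region (AHSG, APOB, FGA and HNF4A), and 8 had a recurrent region at a gene end. The FGA region reaches a gene end, and 3 of the 18 held a region wholly more than 1000 bp from gene ends. Without high fat 200 replicate 1, 3 of the 18 held an intragenic distal region. Of 12 Kupffer cell and macrophage markers, 1 held any, with regions of MARCO in 4 and 3 libraries, and 1 had a recurrent region at an end. The 13 endothelial and stellate, 5 cholangiocyte, 11 lymphocyte and 7 erythroid markers held 0 intragenic distal regions, and none of these genes had a recurrent region at an end. These lists hold little distal sequence, 1.08 Mb for the endothelial and stellate markers and 0.0490 to 0.212 Mb for the others, and genes of like spans hold 1.70 to 4.09 regions per Mb, so a count of 0 is near the background. Per Mb of distal sequence the hepatocyte markers held 15.2 regions against 3.13 in genes of like spans, and the Kupffer cell and macrophage markers 7.87 against 2.77. With 5 listing libraries asked for, 2 of the 18 hepatocyte and 0 of the 12 Kupffer cell and macrophage markers held one.

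The groups labelled high and low fat were compared by how many libraries of each listed a region. Fisher's exact test (two-sided) was used, with Benjamini-Hochberg adjustment over all regions listed in at least 3 libraries of the comparison. With 7 against 7 libraries the smallest p this test can give is 0.000583, for a region in 7 libraries of one group and 0 of the other. After adjustment such a region could pass in the 200 set only if 86 regions reached that p, and in the 600 set only if 40 did. In the 200 set, 0 of 7342 regions passed at an adjusted p of 0.05 (percent called 0) and 1 had an unadjusted p under 0.05. Of the intragenic distal regions, 1794 entered, 0 passed and 0 had an unadjusted p under 0.05. More high fat libraries listed 635 of them, more low fat libraries 647, and 512 were tied. Over all regions tested, 30.9% were in more high and 40.6% in more low fat libraries, against 35.4% and 36.1% of the intragenic distal ones. The sign test over replicate numbers also called 0.

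The region with the smallest p in the 200 set was in GRK1, a kinase of G protein-coupled receptors, at chr11:78798723-78800416. It was listed in 4 of 7 high and 0 of 7 low fat libraries (exact p = 0.0699, Fisher's adjusted p = 1). Regions in SLC22A5, a carnitine transporter, TMEM131L and EXOC6 were in 3 high and 0 low fat libraries (exact p = 0.192 each). In the other direction, ZNF672 and NEMP2 each had a region in 2 high and 6 low fat libraries (exact p = 0.103). UVRAG and CGNL1 had one in 0 high and 3 low. None of these passed the test.

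In the 600 set, 0 of 3398 regions passed (percent called 0) and 0 had an unadjusted p under 0.05, also by the sign test. The 676 intragenic distal regions tested were split into 229 in more high fat libraries, 241 in more low fat libraries and 206 tied. Over all regions tested, 27.1% were in more high and 39.2% in more low fat libraries, against 33.9% and 35.7% of the intragenic distal ones. Regions in STT3B and SSX2IP were listed in 2 high and 6 low fat 600 libraries (exact p = 0.103), and those in KIAA2026 and CHD2, a chromatin remodeller, in 2 and 5 (exact p = 0.286). ZC3H4 and CLSPN had a region in 3 high and 0 low fat libraries (exact p = 0.192).

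When the 200 and 600 libraries with the same fat group and title number were counted together as 1 animal, which the labels do not state, 0 of 7883 regions passed (percent called 0) and 1 had an unadjusted p under 0.05. Of 1982 intragenic distal regions tested, 0 passed and 0 had an unadjusted p under 0.05. More high fat animals listed 720 of them (36.3%) and more low fat animals 687 (34.7%), against 31.0% and 39.5% of all regions tested. This comparison shares its libraries with those within the sets, so it is no separate evidence. Its smallest p values were for GRK1 and for INPP5A, an inositol phosphatase, in 4 high and 0 low fat animals each (exact p = 0.0699). The ELOVL6 region in 14 libraries was in 7 high and 7 low fat libraries over both sets.

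Between the 600 and 200 libraries, 42 of 8592 regions passed (percent called 0.489, of which 0.477 toward 200 and 0.0116 toward 600). Of the 2258 intragenic distal regions, 1 passed, and 41 of the calls lay outside genes. Fisher's test took the 28 libraries as separate and did not use their replicate numbers. With the numbers as blocks (exact sign test) 0 of all regions passed. Most regions were in more 200 libraries, 1864 of the intragenic distal ones (82.6%) against 83.5% of all recurrent regions, while 152 were in more 600 libraries and 242 were tied. The 200 libraries had more peaks, with group medians of 1610 and 2467 against 190 and 526, and the part of this in the result was not tested.

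The region that passed was in AKAP7, which anchors the cAMP-dependent protein kinase, at chr1:32248157-32248653, 6003 bp from the nearest gene end. It was listed in 10 of 14 libraries labelled 200 (4 high and 6 low fat) and in 0 of 14 labelled 600 (exact p = 0.000153, Fisher's adjusted p = 0.0312). Its −log10 p was between 3.81 and 5.51 in those 10. With the replicate numbers as blocks (exact sign test) the region did not pass (exact p = 0.00195, adjusted p = 0.373). Among the 15 libraries with at least 1000 peaks it was in 7 of 9 against 0 of 6 (exact p = 0.00699), where 0 of all regions passed. Close behind, a region in PTPRO, a receptor tyrosine phosphatase, was in 9 and 0 libraries (exact p = 0.000583, Fisher's adjusted p = 0.0977). GRM7, a glutamate receptor gene, held a region in 10 libraries labelled 200 and 1 labelled 600 (Fisher's adjusted p = 0.209), with a median −log10 p of 10.2. KCTD1 had one in 11 and 2 and SH2D3C one in 8 and 0 libraries. Toward the 600 set, the largest differences were 4 against 0 in TRPM3, 5 against 1 in DDX11, a helicase gene, and 3 against 0 in TEX14 and in EBF1, a B cell transcription factor, and none passed. A region in 3 libraries cannot go below an exact p of 0.222 here. In all, 75 of the 2258 regions had an unadjusted p under 0.05, against 387 of all 8592.

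Listings in the 600 set were set against the 200 library of the same fat group and number. Recurrence chose the regions, so a high share was partly built in. High fat 600 replicates 1 and 7 gave 902 and 1403 of the listings. High fat 200 replicates 1 and 7 listed 89.5% and 86.9% of all the regions. The share for libraries of different numbers was not computed. Of 4193 listings of the regions in 600 libraries, 87.6% had a peak of the 200 library with the same fat group and number in the same region, against 91.9% for gene-end regions. No 600 library listed 569 of the regions (25.2%), against 21.7% of all recurrent regions, and no 200 library listed 4, against 13 of all recurrent regions.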

How the data were processed

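The authors deposited 1 peak list per library, 84192 peaks on 19 chromosomes of Sscrofa11.1, with no read counts, so depth is unknown and no intervals from counts are given. Per the submitters' processing notes, the tools were BWA, SAMtools, Picard, Genrich and FastQC; their versions, order and settings are not given in the sources used here. Per the file headers the columns are position, score, signal, p-value and summit. The deposited p-value column reaches 7881 and so is a −log10 p. The deposited signal is the peak's area, lowest at 400.0, and the deposited score equalled 1000 times signal over width, capped, in 99.9988% of peaks. The values move with depth and fragment size, and an unlisted region can be closed or thinly sequenced.

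Regions were chained, located against RefSeq genes of the same build and tested as described, after a check on simulated data. Of 489 list genes 5 had no match. Regions named in the text were the 20 listed most often, among the 5 with the smallest p per comparison and direction, the list members in most libraries and the 5 genes with most regions; further genes were named after their values were seen. The members and the gene lists were chosen with earlier results of these data known. Alternatives covered overlap, library minimum, gene-end window, gene type, strength, and each library left out. Sequences and motifs were not analysed here, and 1 gene list and 1 gene of another list are not reported here. Python 3.11.15 was used with scipy 1.17.1, pandas 2.3.3, numpy 2.4.6 and, for plots, matplotlib 3.10.9.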

Additional observations from a re-analysis of the deposited data

Results flagged for a closer look

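A library far from the others of its group was looked for in −log10 p of the 11 regions in 20 or more libraries, in the number of regions listed and in their share of the peaks, where at least 4 libraries of the group had a value. Of 49 groups examined, 5 held one, each in −log10 p, and chance gives about 1 in 20. High fat 600 replicate 2 was high for SPOCK3 (23.99, nearest 12.5) and for the chromosome 9 region at 15232484 (11.2, nearest 4.82). Low fat 600 replicate 2 was low for PDE4D (3.08, nearest 8.52) and high for the chromosome 7 region at 10867574 (9.06, nearest 6.99). Low fat 200 replicate 3 was low for the chromosome 8 region at 12487322 (4.22, nearest 5.84). These 3 libraries are among those with under 1000 peaks.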

How the results depend on the processing

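The number of intragenic distal regions was 3642 with 2 listing libraries asked for, 1161 with 5, and 1180 from the stronger part of the peaks, above the median −log10 p of all 200 or all 600 peaks. Leaving out 1 library gave 1731 to 2258, lowest without high fat 200 replicate 1. Gene-end windows of 500 to 5000 bp gave 2679 to 1577. The single call between the 600 and 200 libraries was 0 with no minimum number of libraries, 3 with the stronger peaks (AKAP7 not among them, exact p = 0.00580), and 0 with libraries of at least 1000 peaks, where 0 of all regions passed. Leaving out 1 library gave 1 to 2 such calls and 42 to 49 over all regions. It was 2 without high fat 200 replicate 3, 4 or 6, low fat 200 replicate 2 or 3 (PTPRO added) or high fat 600 replicate 1 (GRM7 added). The replicate numbers were not taken to pair libraries. Deviations of same-numbered 200 and 600 libraries correlated at r = 0.0354 to 0.626, over 0.1 in 9 of 14 pairs, and 6 correlated best with their own number. For high and low fat libraries of 1 number, 0 of 7 did so in the 200 set and 3 of 7 in the 600 set. With the replicate block (exact sign test) 0 of all regions and 0 of the intragenic distal ones passed between the 600 and 200 libraries (AKAP7 exact p = 0.00195, adjusted 0.373, and 27 with an unadjusted p under 0.05), and 0 passed for fat. With 5 listing libraries asked for, genes with a region numbered 2 for hepatocyte transcription factors, 7 for nuclear receptors, 3 for triglyceride synthesis, 1 for cholesterol and bile acids, 0 for lipoproteins, 3 for glucose and insulin, 4 for the clock, 13 for the neuronal list, 2 for hepatocyte markers, 0 for Kupffer cell and macrophage markers and 892 for all genes. No result that was recomputed turned in direction. Peak lists without counts limit the comparisons to presence, and with groups of 7 libraries even a complete difference in a single region could not pass for fat, so the counts of 0 there were close to fixed by the design.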
